A study of Mus musculus with 4 samples.

Results

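Claudins are the membrane proteins of the tight junction, the belt that seals neighbouring epithelial or endothelial cells to each other. Each claudin either tightens the space between cells or opens a pore in it for certain ions, and each segment of the nephron carries its own set, which fixes what leaks between its cells. This account covers 10 claudin genes of mouse: Cldn1, Cldn2, Cldn3, Cldn4, Cldn5, Cldn6, Cldn7, Cldn8, Cldn10 and Cldn11. They were found on the arrays by the RefSeq accession of each probe, which gave 12 of 55681 probes, 2 each for Cldn2 and Cldn4 and 1 for each of the other genes, among 20018 genes matched in this way. A gene was tested where a probe passed the scanner software's background mark on both arrays of either group, as 9 of the 10 did. Cldn2 did not.

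RNA came from kidneys of mouse embryos at E13.5, of a hybrid strain of 129 and C57BL/6, taken 24 hours after a tamoxifen dose at E12.5. All 4 samples carry the same tamoxifen treatment in their labels, whose text names Sall1CreER kidneys. CreER is a form of Cre recombinase that tamoxifen switches on, here to delete Sall1, a zinc finger transcription factor of the nephron progenitors. The control group, 2 samples, has titles naming flox, and the Sall1 knockout group, 2 samples, has titles naming CreER, so an effect of CreER itself cannot be told apart from that of losing Sall1. The labels do not state what drives CreER beyond its name, or whether a sample was 1 embryo, 1 litter or a pool, so p-values measure only the spread between these samples.

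Between 60.6% and 64.2% of spots per array were well above background and none was saturated. Markers of the nephron progenitors were bright, with 10 of 10 well above background, among them Six2 with log2 signals of 5.22 and 5.16 in controls and 4.59 and 4.78 in knockouts. All log2 signals here are relative to the 75th percentile of the same array. Sall1 itself was lower by 0.75 ± 0.056 (SE) on the log2 scale in the knockout kidneys, with an adjusted p of 0.125 in limma. Over all 25076 genes and unnamed sequences tested, limma called 0 at an adjusted p under 0.05, which is 0% of them, and 3184 had an unadjusted p under 0.05. Markers of liver were higher in knockouts, by a median of 1.52 and those of skeletal muscle by a median of 1.26. The sum of the 10 liver signals, each as a multiple of the 75th percentile, was 13.49 and 18.85 in controls and 39.55 and 35.31 in knockouts. That of the 8 muscle signals was 32.1 and 15.2 against 59.0 and 40.8.

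Among the tested claudins, those whose knockout values both lay above both control values were Cldn1, Cldn4 and Cldn5. The 250 bases before the start of each are given here, from RefSeq on the strand of the gene in build GRCm38.p6, because these genes share that direction. They lie at chr16:26371840-26372089 on the minus strand for Cldn1, chr5:134946935-134947184 on the minus strand for Cldn4 and chr16:18776597-18776846 on the plus strand for Cldn5. Capitals mark every match, on either strand, to the motifs described next.
Cldn1: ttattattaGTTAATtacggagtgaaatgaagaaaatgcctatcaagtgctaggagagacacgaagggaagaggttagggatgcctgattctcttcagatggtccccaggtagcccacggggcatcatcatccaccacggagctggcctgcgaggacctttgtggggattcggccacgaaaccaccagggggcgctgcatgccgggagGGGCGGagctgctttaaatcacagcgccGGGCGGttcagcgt
Cldn4: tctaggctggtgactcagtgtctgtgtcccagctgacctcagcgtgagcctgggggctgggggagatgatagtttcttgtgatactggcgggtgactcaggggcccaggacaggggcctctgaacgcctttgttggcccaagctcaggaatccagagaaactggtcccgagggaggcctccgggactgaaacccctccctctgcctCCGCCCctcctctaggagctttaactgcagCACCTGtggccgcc
Cldn5: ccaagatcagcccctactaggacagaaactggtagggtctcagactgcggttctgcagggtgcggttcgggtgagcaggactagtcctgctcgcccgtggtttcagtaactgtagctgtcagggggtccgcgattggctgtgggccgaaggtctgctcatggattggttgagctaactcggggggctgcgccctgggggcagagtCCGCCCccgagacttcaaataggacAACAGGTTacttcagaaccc

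Of the 10 genes 9 had a promoter entry, with 11 windows in all, and Cldn8 had none. The GC box GGGCGG, a site of Sp and Klf factors, was found in 7 of the 11 windows, from 7 of the 9 genes. It was found in 32.7% of all 32851 promoter windows of that length. The printed windows of Cldn1, Cldn4 and Cldn5 were 55.6%, 62.0% and 59.6% G or C, against a median of 52.4% over all windows. Cldn1 held it 42 and 14 bases before its start, Cldn4 and Cldn5 held it on the other strand, 44 and 45 bases before. The HNF1 half-site GTTAAT lay 241 bases before the start of Cldn1 and in 1 of the windows of Cldn10, against 6.43% of all windows. The E-box CAGGTG, bound by Snai and Zeb repressors, lay on the other strand 14 bases before the start of Cldn4 and in windows of Cldn6 and Cldn7, against 17.2% of all windows. The word AACCNGTT of Grainyhead-like factors was found among these genes for Cldn5 alone, on the other strand 20 bases before its start, against 1.79% of windows. Neither the TATA box TATAAA, found for Cldn2 and in 12.4% of windows, nor the AT-rich word AATATT, found for Cldn10 and in 6.17%, lay in the 3 sequences printed. These motifs do not overlap each other in the windows shown. No motif was common to the 3 genes beyond the GC box.

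Both knockout values of Cldn1 lay above both controls. Levels of Cldn3, Cldn6, Cldn7 and Cldn8 in the knockouts were within the range of the controls or overlapped it. The signal of Cldn10 was lower in both knockouts, a description only, since its control arrays alone brought it into the test. The differences of Cldn4, Cldn5, Cldn10 and Cldn11 were smaller than 1.5-fold. None of the 9 tested claudins passed limma at an adjusted p under 0.05. At an unadjusted p under 0.05 in limma, Cldn1, Cldn4 and Cldn5 were higher, against 6.86% of all features in that direction, and Cldn10 was lower, against 5.84%. The groups did not overlap for 5 of 9 claudins, 3 higher and 2 lower, and for 49.2% of all features, 21.8% higher and 27.4% lower. Higher features were 44.3% of those without overlap, 30.8% when arrays were centred on their medians, 53.0% with normexp and 57.8% with no background filter. The median log2 difference of the 9 was 0.043, beside -0.011 over all features. A difference of at least 1.5-fold without overlap was found for Cldn1 alone, against 3.53% of all features, 2.49% higher. The median of the claudins ranged from -0.034 without control replicate 1 to 0.15 without control replicate 2. Cldn10 entered the test only through its control arrays, so these counts are descriptions of the set. In whole kidneys, more cells of a type and more RNA per cell cannot be told apart.

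**Figure D1:**
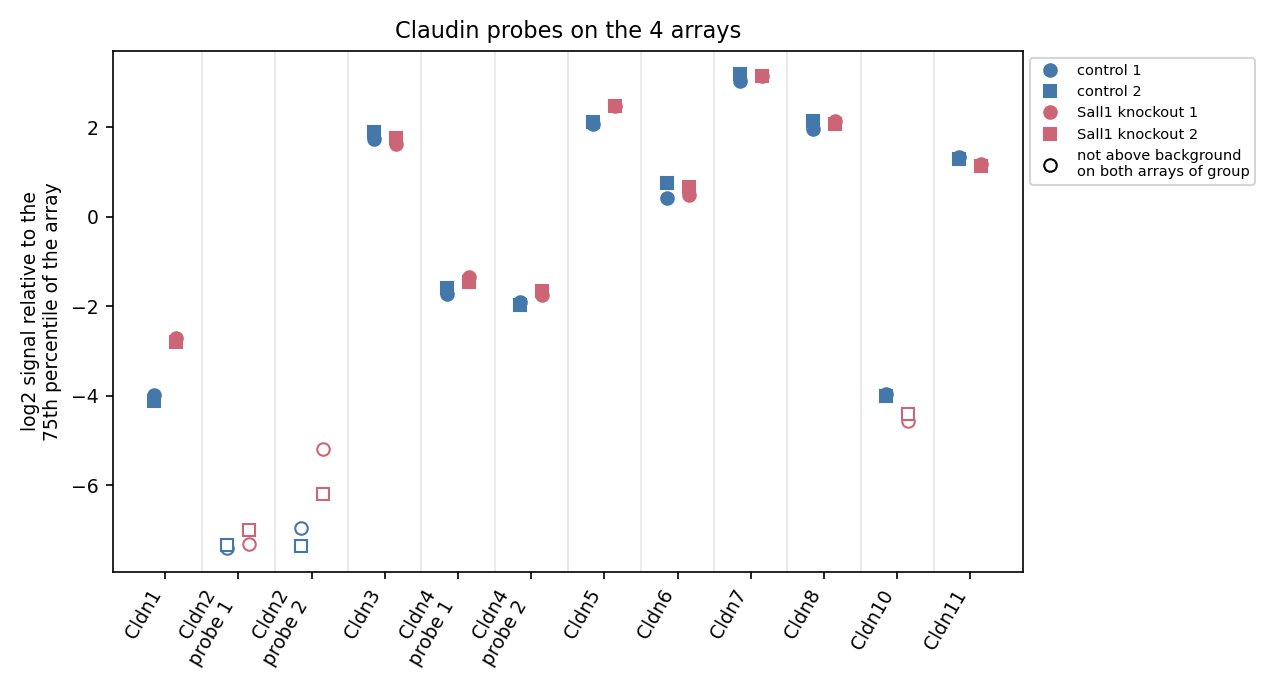
Log2 signal of the 12 claudin probes over the array's 75th percentile, in blue for the 2 control and red for the 2 Sall1 knockout arrays, with circles for replicate 1 and squares for replicate 2, and open points where a probe was not well above background on both arrays of the group. Cldn1 stands apart by group, at -3.98 and -4.12 against -2.71 and -2.80, while both Cldn2 probes are open in all 4 arrays. Heights of different probes are not comparable.

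Cldn1 is a sealing claudin of the skin barrier and, in kidney, of the parietal cells that line Bowman's capsule. Its processed signals were 37.9 and 31.5 in controls and 82.0 and 75.2 in knockouts, all well above background. The spots themselves had median pixel values of 93.0 and 86.0 in controls and 142.5 and 134.0 in knockouts, over a local background of 30 to 34. Both knockout arrays were above both controls, and the replicates of each group lay close together. On the scaled log2 values the difference was 1.30 ± 0.081 (SE), or 2.46-fold higher, with a 95% interval of 2.10-fold to 2.89-fold. In limma the unadjusted p was 0.000124, the rank of this p was 29 among all features, and the adjusted p was 0.104. Only 0.590% of features had a larger difference in either direction. With a variance prior that follows the signal, limma gave Cldn1 a larger SE of 0.168 and an adjusted p of 0.0167. Under normexp correction the difference was 0.65 and the adjusted p in limma 0.0520.

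Tissues other than kidney epithelium also carry Cldn1, and their markers were measured on the same arrays. Of 6 markers of stratified epithelium 4 were tested, 1 with groups that did not overlap, and Dsg3 and Ivl were below the background mark on all 4 arrays. Below that mark, the processed signals of Dsg3 were 3.71 and 6.51 in controls and 17.5 and 9.76 in knockouts. Those of Ivl were 4.26 and 4.13 against 9.37 and 7.38, so both were higher in both knockouts. The median difference of the 4 tested markers was 0.47, and it was -0.043 without control replicate 1 and 0.93 without control replicate 2. The keratins Krt15, Krt5 and Krt14 differed by 0.87 ± 0.28 (SE), 0.79 ± 0.66 and 0.15 ± 0.34, and only the groups of Krt15 did not overlap. Trp63, the master regulator of that epithelium, differed by -0.018. It made up most of the summed signal of the list, which was 6.66 and 7.10 in controls and 7.34 and 7.01 in knockouts. Without overlap, 21.8% of all features were higher and 27.4% lower. All 10 liver markers were higher without overlap. Of 12 tested proximal tubule markers 6 were higher and 1 was lower without overlap, and the groups of 5 overlapped. The sums over the 14 listed proximal tubule markers were 4.80 and 4.55 in controls against 6.86 and 6.47. Of 8 podocyte markers, cells that share the glomerulus with the parietal cells, 6 were higher without overlap, with a median difference of 0.20. Their summed signal was 140.9 and 129.3 in controls against 129.1 and 121.3, and most of it came from Cdkn1c, the 1 marker that was lower without overlap. The part of any of these tissues in the Cldn1 difference was not tested.

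The pore-forming claudins come next. Cldn2 forms the cation and water pore of the proximal tubule. One of its probes had processed signals of 3.53 and 3.38 in controls and 3.35 and 4.11 in knockouts. The other, higher in both knockouts, had 4.79 and 3.33 in controls and 14.7 and 7.08 in knockouts. No value was well above background, where the lowest signal so marked on an array was between 15.0 and 18.7, so no fold is given and Cldn2 was not detectable at this signal. In the same arrays 12 of 14 proximal tubule markers could be tested.

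Cldn10 forms, by isoform, a cation pore of the thick ascending limb or an anion pore of the proximal tubule. Its single probe follows 1 RefSeq transcript and does not tell these isoforms apart here. Its processed signals were 38.4 and 34.2 in the control arrays, both well above background, and 22.5 and 24.5 in knockouts, of which 1 was. Both knockout values lay below both controls. The log2 difference was -0.51 ± 0.081 (SE), or 1.42-fold lower, with an unadjusted p of 0.00383 and an adjusted p of 0.234 in limma. Spot medians were 85.0 and 90.0 against 77.0 and 79.5. Cldn10 was kept only through its control arrays, where it was high, so this p is a description and supports no difference. Normexp correction reduced the difference to -0.10, with an unadjusted p of 0.159 in limma. With the variance prior that follows the signal, the SE of Cldn10 was 0.222 and its unadjusted p in limma 0.0540. Of the thick limb and distal markers Slc12a1, Slc12a3 and Kcnj1 were below the background mark on all 4 arrays, and Umod passed it on 1 array of each group. The 5 tested markers of that list had a median difference of 0.80, which was -0.021 without control replicate 1. That median is the value of Irx2 alone, 0.80 ± 0.84 (SE), whose groups overlapped. Irx2 was kept only through its knockout arrays, with processed signals of 8.95 and 40.1 in controls and 33.7 and 27.3 in knockouts, so the median is a description. Of the 5 markers, Irx1 and Sostdc1 were higher without overlap, by 1.53 ± 0.31 (SE) and 0.95 ± 0.094. Pou3f3 was lower, by 0.37 ± 0.11 on the log2 scale.

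Cldn3, Cldn4, Cldn7 and Cldn8 belong to the ureteric bud and to the distal nephron and collecting duct that mature later. Cldn7, which supports the collecting duct epithelium and its chloride permeability, had log2 signals of 3.02 and 3.18 in controls and 3.14 and 3.14 in knockouts. The groups overlapped. Its difference was 0.043 ± 0.078 (SE), with a 95% interval from 0.884 to 1.202 times the control.

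Cldn8, which places Cldn4 in the junction of collecting duct cells, had log2 signals of 1.96 and 2.13 in controls and 2.14 and 2.08 in knockouts. The groups overlapped. Its difference was 0.065 ± 0.086 (SE), with an interval from 0.883 to 1.24 times the control. Cldn3, a sealing claudin, had 1.74 and 1.88 against 1.61 and 1.75. These groups overlapped too, with a difference of -0.13 ± 0.090 (SE) and an interval from 0.766 to 1.09 times the control. For these 3 genes the intervals leave out a 1.5-fold change in either direction, and the adjusted p in limma was 0.827 for Cldn7, 0.763 for Cldn8 and 0.573 for Cldn3.

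Cldn4, which with Cldn8 sets chloride leak in the collecting duct, was measured by 2 probes. The brighter probe had log2 signals of -1.73 and -1.60 in controls and -1.34 and -1.45 in knockouts. The other had -1.92 and -1.97 against -1.74 and -1.67. On both probes both knockout values lay above both controls. The difference was 0.27 ± 0.082 (SE) on the brighter probe and 0.24 ± 0.067 on the other, or 1.203-fold and 1.18-fold. In limma their adjusted p was 0.365 over genes and 0.372 over probes. Markers of the ureteric bud and collecting duct moved both ways, with a median of 0.11. Without overlap 5 of 13 were higher and 3 lower, against 21.8% and 27.4% of all features. Among them the keratin Krt19 differed by 0.78 and the bud tip receptor Ret by -0.28. Their summed signal was 88.5 and 93.6 in controls and 88.8 and 92.8 in knockouts, so the groups overlapped.

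Cldn6, a claudin of embryonic epithelia that is largely lost after birth, had log2 signals of 0.42 and 0.74 in controls and 0.49 and 0.66 in knockouts. Both knockout values lay between the controls. Its difference was -0.0039 ± 0.14 (SE), with an interval from 0.751 to 1.32 times the control and an adjusted p of 0.993 in limma.

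Cldn5 and Cldn11 are best known outside the tubule. Cldn5, the barrier claudin of endothelium, had log2 signals of 2.07 and 2.12 in controls and 2.46 and 2.46 in knockouts, and the knockout values were above both controls. It was 1.29-fold higher, by 0.37 ± 0.058 (SE), with an interval of 1.15-fold to 1.44-fold. The adjusted p in limma was 0.232, and 0.0210 with the variance prior that follows the signal. That prior called Cldn1 and Cldn5 among the 9 claudins, and 1.16% of all features, 0.538% higher and 0.622% lower. Of 11 endothelial markers 7 were higher and 0 lower without overlap, against 21.8% and 27.4% of all features. The median difference of these markers was 0.19 and the largest 0.31, that of the receptor Tek. Their summed signal was 63.4 and 63.0 in controls and 69.8 and 72.4 in knockouts. Most of each sum came from Egfl7, which was higher by 0.21 ± 0.058 (SE). The groups of 4 of the 11 markers overlapped. The part of endothelial cell number in the Cldn5 difference was not tested.

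Cldn11, the claudin of myelin and of the Sertoli cell barrier, had log2 signals of 1.32 and 1.29 in controls and 1.18 and 1.14 in knockouts. Both knockout values lay below both controls, and the spread within each group was small. Its difference was -0.15 ± 0.057 (SE), or 1.11-fold lower, with an adjusted p of 0.421 in limma. Of the 6 Sertoli markers Amh and Fshr were below the background mark on all 4 arrays, as was Olig2 among the 11 neural and glial markers. The summed Sertoli signals were 2.16 and 2.20 in controls and 2.18 and 2.25 in knockouts, and most of each sum came from Sox9. Of the 4 tested Sertoli markers, Sox9 was higher without overlap, by 0.091, and Dmrt1 lower, by 0.19 on the log2 scale. Over all features these shares were 21.8% and 27.4%. Summed neural and glial signals were 6.26 and 7.08 against 6.22 and 6.03.

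**Figure D2:**
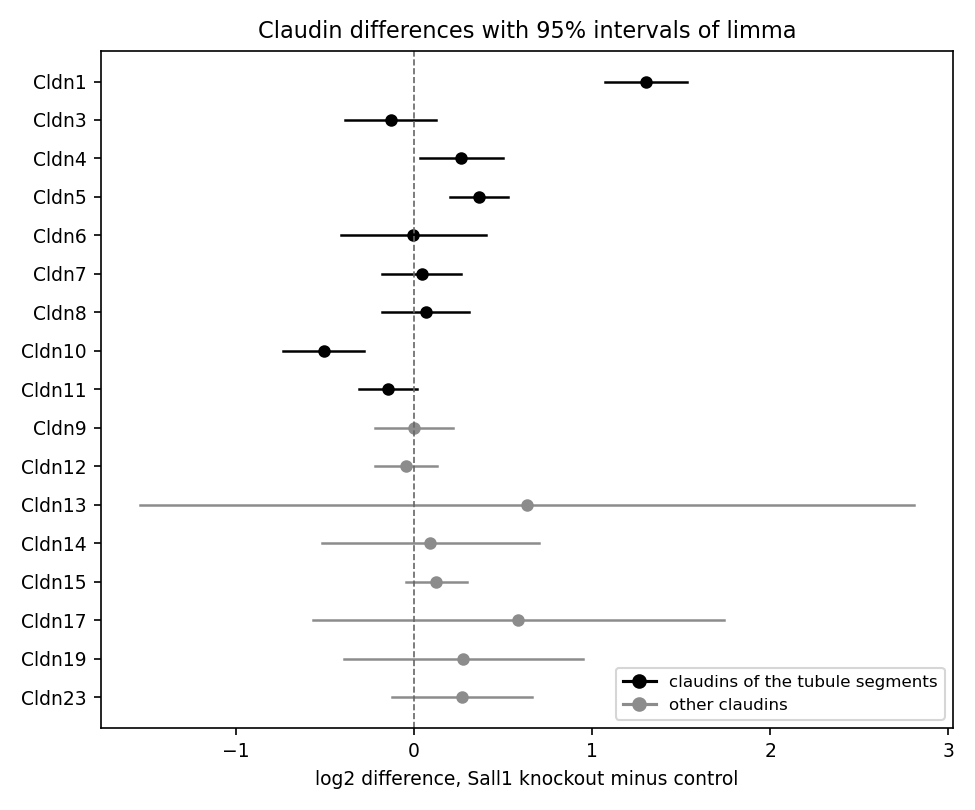
Log2 difference, Sall1 knockout minus control, for each tested claudin, with points for the fitted difference and lines for its 95% interval in limma from 2 arrays per group. Black marks the 9 tested claudins of the set and grey the other 8 claudins tested. Cldn1 lies at 1.30, Cldn10 at -0.51, and the interval of Cldn13 is the widest of those shown.

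Of 13 other claudins on the array 8 were tested. None had an unadjusted p under 0.05 or passed adjustment in limma. Cldn15 and Cldn23 were higher without overlap, by 0.12 ± 0.060 (SE) and 0.27 ± 0.14, against 21.8% of all features in that direction. The differences were -0.044 for Cldn12, -0.00030 for Cldn9, 0.091 for Cldn14, 0.59 for Cldn17 and 0.28 for Cldn19. That of Cldn17 was 1.13 without control replicate 1 and 0.040 without control replicate 2, that of Cldn19 was -0.011 without control replicate 1, and that of Cldn14 was -0.16 without knockout replicate 1 and -0.053 without control replicate 2. Cldn16, the claudin of magnesium handling in the thick ascending limb, was below the background mark on all 4 arrays. Cldn17 entered the test only through its knockout arrays, with processed signals of 27.8 and 11.9 in controls and 23.6 and 26.9 in knockouts. Cldn13 had log2 signals of -4.14 and -2.12 in controls and -2.79 and -2.20 in knockouts, so that its lowest value was that of control replicate 1. Its difference of 0.63 ± 0.77 (SE) turned to -0.38 without control replicate 1 and to 1.65 without control replicate 2. The 7 erythroid markers were higher in control replicate 2 than in control replicate 1, with a median gap of 1.72, and their summed signal was 29.8 and 91.6 in controls and 32.2 and 76.7 in knockouts.

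Several claudins lie beside another claudin in the genome, so the nearest protein-coding gene on each side of each was read from the RefSeq order of GRCm38.p6. Cldn3 and Cldn4 are neighbours, and differed by -0.13 and 0.27. Cldn6 lies beside Cldn9, and they differed by -0.0039 and -0.00030. Cldn8 lies beside Cldn17, whose groups overlapped. Cldn1 lies between Cldn16, not detected, and P3h2, which differed by 0.083 ± 0.28 (SE). Of 18 neighbours that are not in the set 15 were tested, and none had an unadjusted p under 0.05 in limma. Their differences ran from -0.14 for Mettl27 to 0.59 for Cldn17, which entered the test only through its knockout arrays.

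The claudins sit in a junction with other membrane proteins and a plaque of scaffolds inside the cell. Of 12 membrane partners 12 were tested, with 0 passing adjustment in limma and a median of 0.010. By an unadjusted p under 0.05 in limma 1 was higher and 2 were lower, against 6.86% and 5.84% of all features. Bves, an adhesion protein of epithelia and muscle, was 1.42-fold lower (adjusted p = 0.239), and Igsf5, a junctional adhesion protein, was 1.39-fold lower (adjusted p = 0.304) in limma. Ildr1, which recruits tricellulin to the corners between cells, was 1.38-fold higher (adjusted p = 0.364 in limma). Occludin, encoded by Ocln, differed by 0.025 ± 0.13 (SE), and Jam2 by 0.42 ± 0.35.

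Of 16 plaque genes 16 were tested, with a median of -0.0078. By an unadjusted p under 0.05 in limma 0 were lower and 1 was higher, against 5.84% and 6.86% of all features. That gene, Tjp3, encodes the scaffold ZO-3 and was 1.24-fold higher, with log2 signals of 0.33 and 0.49 in controls and 0.69 and 0.77 in knockouts (adjusted p = 0.339 in limma). Its relative Tjp1 differed by -0.022, and cingulin, encoded by Cgn, by 0.13. Of the genes that stabilise or cleave claudins 8 of 9 were on the array, and 0 had an unadjusted p under 0.05 in limma. Epcam, which holds Cldn7 at the membrane, differed by -0.11 ± 0.11 (SE), and the protease inhibitors Spint1 and Spint2 by 0.12 and 0.081.

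**Figure D3:**
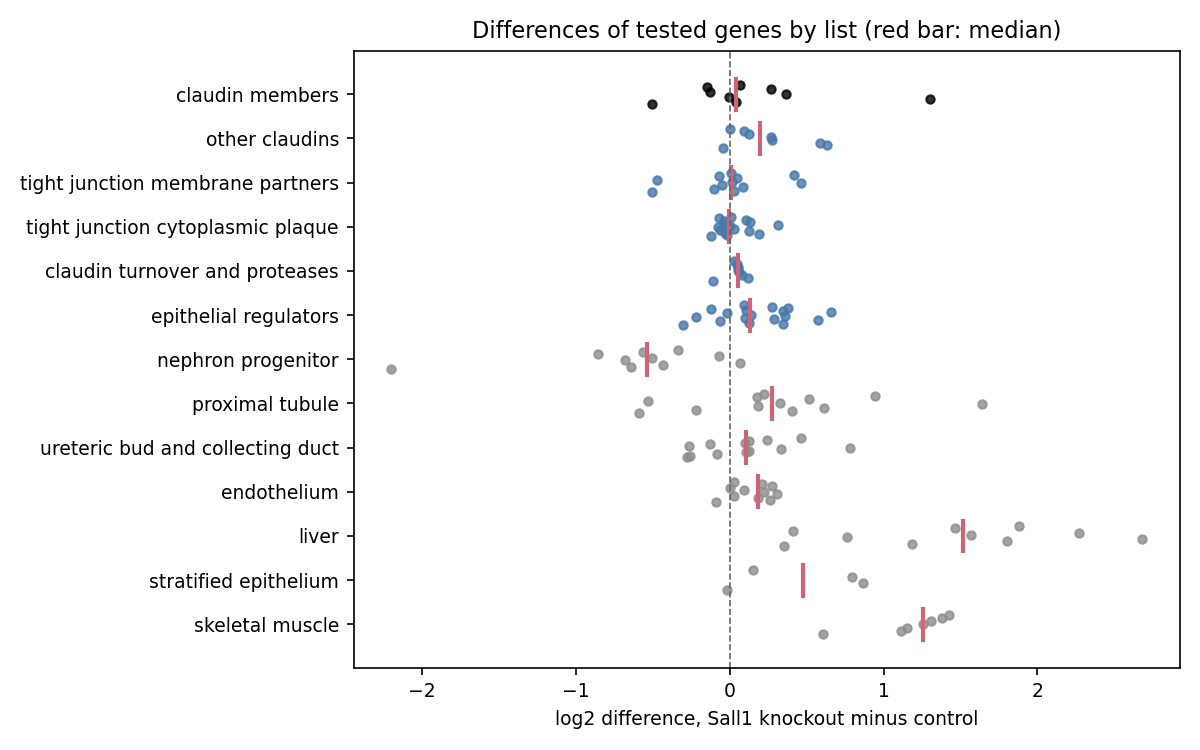
Log2 difference, Sall1 knockout minus control, of each tested gene in 13 lists, with points for genes, shifted in height only to separate them, and a red bar for the median of each list. The medians of the claudin set and of the junction lists lie between -0.0078 and 0.20, whereas that of the liver markers lies at 1.52 and that of the nephron progenitor markers at -0.54.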

How the data were processed

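Total RNA of 4 embryonic kidney samples was labelled with Cy3 from 0.25 µg and hybridised to one-colour Agilent arrays of design 028005, per the labels and the file headers. Per the file headers, Agilent Feature Extraction 10.7.3.1 wrote the deposited files for build mm9. Their processed signal is an intensity after background subtraction and detrending by that software, not scaled between arrays. In the deposited value table, all 55249 probes with 1 spot (100%) carried that intensity to within 1%, and its column medians were 52.6 and 47.3 (control), then 48.1 and 46.1 (knockout). No source used here says how it was made.

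Signals were divided by the 75th percentile of the array (600 and 549.4 in the control, 535.1 and 523.1 in the knockout arrays) and set to log2. Control and outlier spots were left out and spots of a probe averaged. The 34253 probes with the background mark on both arrays of either group were kept. Probes were named through RefSeq accessions (26413 of 55681 matched), and a gene was represented by its brightest probe. Groups follow the labelled genotype, with replicate numbers in accession order. The two-sided test was limma 3.58.1 (R 4.3.3) with lmFit and eBayes, on 2 residual and 1.80 prior degrees of freedom, adjusted by Benjamini-Hochberg over 25076 features. Other probes of a gene were fitted with every kept probe as a feature. SE are those of the fit, n = 2 per group. Having 4 arrays limits the precision. The fit was tested on simulated data with known changes.

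The claudins, lists, tests and alternatives were chosen with earlier results of these data known. Genes are named by rule: all claudins tested, Sall1, up to 4 genes of each junction, turnover and regulator list by unadjusted p, tested neighbours of the claudins, and markers where they stand beside a claudin. Other names were chosen after their values were seen. A gene that the rule names in the plaque list is not reported here. Promoter letters were read from RefSeq windows of 250 bases before each start. In olfactory and vomeronasal receptor genes the start was followed by ATG in 75.9% of plus-strand and 74.4% of minus-strand windows, so windows follow the gene's strand.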

Additional observations from a re-analysis of the deposited data

How the results depend on the processing

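Alternatives were normexp correction (offset 50, on median signals), scaling by quantiles or by the median, all probes or only those with the background mark on all 4 arrays, outlier spots kept, the mean over probes, a trended robust prior, array weights, the deposited value table and each array left out. No paired analysis was possible because the labels give the groups no shared replicate numbers. The count of claudins passing an adjusted p under 0.05 in limma, 0, became 2 with the trended robust prior, and that of the other claudins, junction, turnover and regulator genes, 0, also became 2. At an unadjusted p under 0.05 in limma the count of claudins was 4, beside 12.7% of all features, and it became 2 with normexp. Claudins whose groups did not overlap numbered 5, beside 49.2% of all features. Under the settings that kept every array they numbered 4 to 6, beside 48.0% to 50.9% of all features. With an array left out, where 1 array stands for a group, they numbered 5 to 8, beside 74.0% to 75.3% of all features. Over all features limma called 0, against 291 with the trended robust prior and 36 with normexp. Sall1 passed under these 2 settings, at -0.72 with normexp and -0.75 with the prior. Median centring moved the share of higher among features that did not overlap from 44.3% to 30.8%, and among those at an unadjusted p under 0.05 from 54.0% to 38.8%. With no background filter these shares were 57.8% and 67.2%. The median over all features was -0.011 and stayed between -0.050 and 0.029. Cldn1, Cldn4 and Cldn5 stayed higher and Cldn3, Cldn10 and Cldn11 lower under every alternative that gave a value. Cldn10 has none among probes above background on all 4 arrays. Cldn6 turned to 0.0037 with normexp, 0.0070 with quantile normalization and 0.00056 with the deposited table, and Cldn9 to 0.0056 and 0.0044 with the last 2. With an array left out the differences ran from -0.17 to 0.16 for Cldn6, -0.034 to 0.12 for Cldn7, -0.021 to 0.15 for Cldn8, -0.072 to 0.071 for Cldn9, -0.38 to 1.65 for Cldn13, -0.16 to 0.34 for Cldn14 and -0.011 to 0.56 for Cldn19. The cause of these changes was not tested. Signals near background limit Cldn1, Cldn2 and Cldn10, and also Cldn17 among the other claudins.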

Other observations

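Transcription factors that set epithelial character were listed beside the claudins. Of 18 tested, 6 were higher and 1 was lower by an unadjusted p under 0.05 in limma, against 6.86% and 5.84% of all features. None passed adjustment. Without overlap 12 were higher and 3 lower, against 21.8% and 27.4% of all features. The median was 0.13 beside -0.011 over all features. Klf5, a Krüppel-like factor of bud and bladder epithelium, had log2 signals of -1.18 and -1.14 in controls and -0.56 and -0.45 in knockouts and was 1.58-fold higher (adjusted p = 0.180 in limma). Ehf, an Ets factor of ducts and glands, was 1.49-fold higher (adjusted p = 0.240), Ovol1 1.28-fold (adjusted p = 0.318) and Elf3 1.27-fold (adjusted p = 0.333) in limma. With the trended robust prior, limma called Klf5 and Ehf, at an adjusted p of 0.0145 and 0.0370, against 1.16% of all features. Repressors of epithelial genes differed both ways. Zeb1 was 1.24-fold lower (adjusted p = 0.337 in limma) and Snai2 1.09-fold lower, whereas Twist1 was 1.30-fold higher (adjusted p = 0.380 in limma), Snai1 1.09-fold and Zeb2 1.08-fold higher, each with groups that did not overlap. Grhl2, the Grainyhead-like factor of kidney ducts, differed by -0.019 ± 0.12 (SE), with overlapping groups. The knockout arrays also had more liver marker signal, by a median of 1.52, and their part in these differences was not tested.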
